A study of Mus musculus with 6 samples.

Results

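The 8 genes described here span the Wnt pathway from ligand to target: the ligands Wnt5a, Wnt4, Wnt7b and Wnt3a, the acyltransferase Porcn, the feedback target Axin2, and the R-spondin receptors Lgr4 and Lgr5, of which Lgr5 is itself a Wnt target. They were found by symbol, and all 8 were present among the 31055 features of the matrix. Their RNA was measured cell by cell with the 10x 3′ method in cells sorted from mouse lung tumors. Each molecule carried a unique molecular identifier (UMI), so PCR copies were counted once.

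Every mouse carried Rosa26LSL-tdTomato, a red reporter that Cre switches on, and Lkb1XTR/XTR, in which Cre traps the tumor suppressor gene Lkb1 (symbol Stk11) and FLPo-ERT2 restores it when tamoxifen is given. Tumors were started with lentiviral Cre in the airways, grew for 20 weeks, and were followed by 2 weeks of tamoxifen (4 mg doses) or vehicle. Of 6 mice, the 3 in the Restored cohort carried FLPo-ERT2 and received tamoxifen. The NonRestored cohort held 1 mouse without FLPo-ERT2 on tamoxifen, 1 without it on vehicle and 1 with it on vehicle. Of the mice 4 were male and 2 female. Cells that stained for CD45, CD31, F4/80 or Ter119 and dead cells were excluded by the sort, which was meant to keep tdTomato-positive neoplastic cells. The matrix pooled all mice and no file used here gave the mouse of a cell, so it was treated as 1 sample. Restored and NonRestored mice are not compared, cells were not used as replicates, and no p-value is given.

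Wnt proteins are secreted ligands that bind Frizzled receptors on nearby cells. Porcupine, the product of Porcn, attaches a palmitoleate group to a conserved serine of each Wnt in the endoplasmic reticulum, and without it the ligand is neither secreted nor active. In the canonical branch, binding stabilizes beta-catenin, which with TCF/LEF factors switches on genes such as Axin2. R-spondins bind Lgr receptors and raise the amount of Frizzled at the cell surface. In the lung, Wnt ligands from mesenchyme and epithelium maintain alveolar type II (ATII) stem cells, and Axin2 is a common readout of that signal.

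The coding sequence around the serine that Porcn modifies is shown for the 4 ligands, since it is the point where Porcn and the ligands of the list meet. Each line is 45 bases of the sense strand from GENCODE release M21 (GRCm38), with the serine codon in capitals.
Wnt5a: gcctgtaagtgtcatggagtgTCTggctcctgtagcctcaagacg
Wnt4: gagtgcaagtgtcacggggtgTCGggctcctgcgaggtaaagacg
Wnt7b: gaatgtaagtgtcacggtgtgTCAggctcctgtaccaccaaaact
Wnt3a: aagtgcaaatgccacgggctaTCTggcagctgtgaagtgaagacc
All 4 stretches lie in the last coding exon of their transcript. The Wnt5a stretch is chr14:28522506-28522550 on the plus strand in exon 5, with the serine at residue 244 of 380. For Wnt4 it is chr4:137296336-137296380 on the plus strand in exon 5, residue 212 of 351. For Wnt7b it is chr15:85537800-85537844 on the minus strand in exon 4, residue 213 of 356. For Wnt3a it is chr11:59250041-59250085 on the minus strand in exon 4, residue 209 of 352. Over these 45 bases the pairs shared between 26 bases (Wnt7b with Wnt3a) and 35 bases (Wnt5a with Wnt7b), so the same serine is written by TCT, TCG and TCA codons.

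On GRCm38, Wnt5a spans chr14:28504750-28527448 on the plus strand, and Wnt4 chr4:137277489-137299726 on the plus strand. Wnt7b spans chr15:85535437-85582473 and Wnt3a chr11:59248033-59290752, both on the minus strand. Porcn lies at chrX:8193848-8206525 on the minus strand and Axin2 at chr11:108920349-108950783 on the plus strand. Lgr4 spans chr2:109917647-110014257 on the plus strand and Lgr5 chr10:115450311-115587780 on the minus strand. Wnt5a, Wnt7b, Axin2 and Lgr5 each overlap a gene annotated on the opposite strand. The others overlap none. Whether counting used strand is not stated in the sources used here.

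Of 16017 cells, 12183 had at least 500 genes and at most 20% mitochondrial UMIs. Gates were set on UMIs per 10000 of the cell. The ATII gate (Sftpc at least 500, Hopx under 2, Krt8 plus Krt18 under 50) held 6975 cells with a median of 21660 UMIs. The alveolar type I (ATI) gate (Hopx at least 15, the same keratin limit) held 956 cells with a median of 11796.5 UMIs. The keratin-high gate (Krt8 plus Krt18 at least 50) held 1183 cells with a median of 23490 UMIs. The fibroblast gate (at least 10 UMIs of Col1a1, Col1a2, Col3a1 and Dcn together) held 236 cells with a median of 16480 UMIs, of which 8 were also in the ATII gate and 2 in the keratin-high gate. No gate took 2843 cells. Of markers that no gate used, 10 of 10 ATII, 9 of 9 ATI and 10 of 10 fibroblast markers were highest in the gate of that name, and 7 of 8 transitional markers (Krt7, Cldn4, Sfn and others) were highest in the keratin-high gate. Cells with at least 10 UMIs of 7 endothelial genes (118 cells) or of 7 immune genes (78 cells) served as references. The fibroblast gate also had the highest level of all 7 pericyte and smooth muscle markers, with a summed level of 1683 UMIs per 1000000 UMIs against 1.95 in ATII, of all 7 endothelial markers, with 169 against 17.4, and of 4 of 5 mesothelial markers, with 122 against 1.43. Its tdTomato level was 1086 against 6491 in ATII. The part of cells other than fibroblasts in the values of that gate was not tested.

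Levels are in CPM: a gate was summed to 1 profile and each gene scaled to a total of 1000000 UMIs, with exact Poisson 95% intervals in brackets. Ratios of levels carry exact conditional 95% intervals. All intervals cover counting error only. Gates can hold different shares of each mouse, so a difference between gates and a difference between mice cannot be told apart. The 3′ method counts molecules, not length, and capture differs between genes, so levels are compared between gates and not between genes.

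Each ligand had its highest level in a different place, except that Wnt5a and Wnt4 shared the fibroblast gate. Wnt5a and Wnt4 were far higher in fibroblasts than in any epithelial gate, Wnt7b was highest in keratin-high cells, and Wnt3a was highest in cells of the ATI gate. Porcn was highest in ATI cells and fibroblasts, Axin2 in fibroblasts, and Lgr4 and Lgr5 were sparse everywhere.

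**Figure D1:**
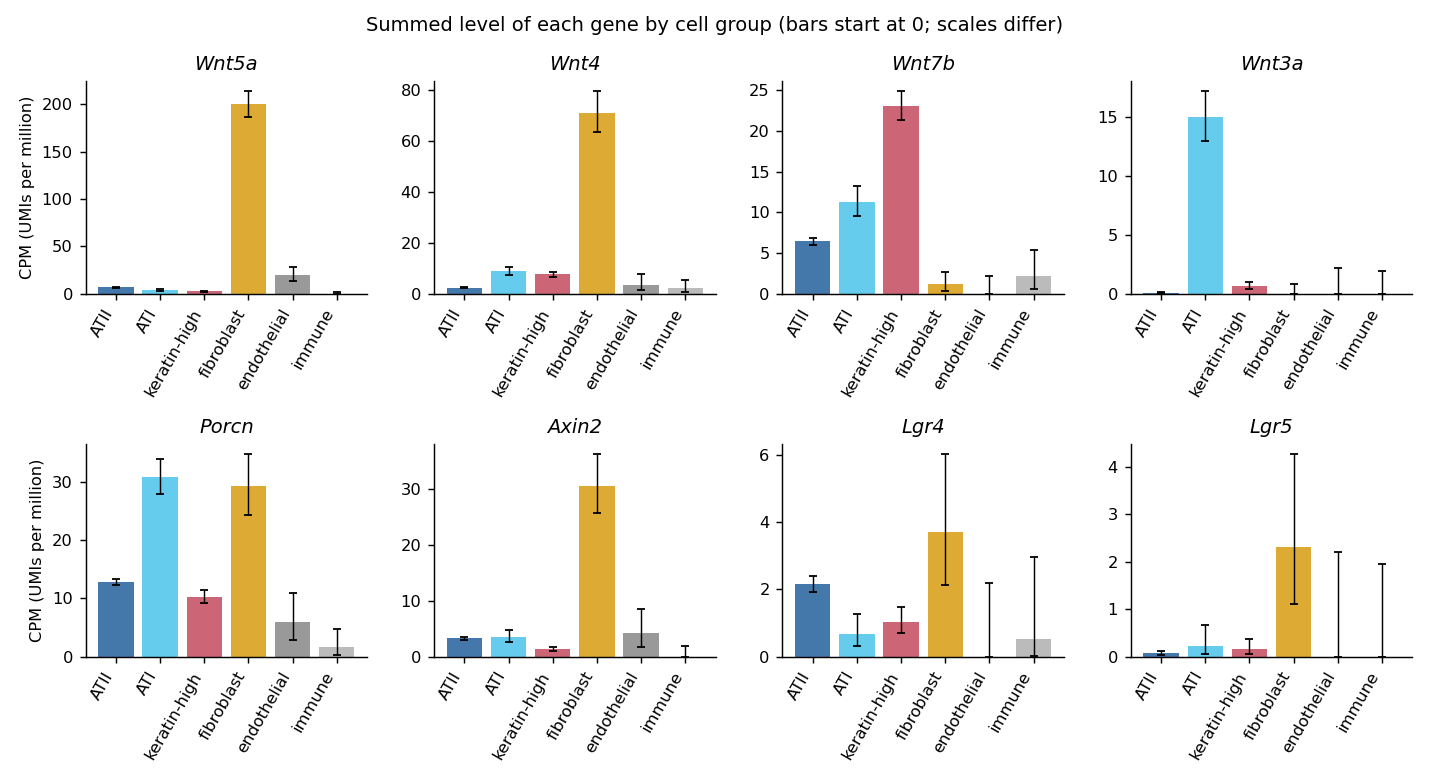
Level of each of the 8 genes in CPM in the ATII, ATI, keratin-high and fibroblast gates and in the endothelial and immune reference cells. Bars are levels summed over cells and lines are exact Poisson 95% intervals; Wnt5a, Wnt4 and Axin2 stand highest in fibroblasts, Wnt7b in keratin-high cells and Wnt3a in ATI cells.

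Wnt5a, a ligand best known for beta-catenin-independent signaling, was at 200 CPM in fibroblasts [187, 214]. It was at 6.74 [6.34, 7.15] in ATII cells, 3.67 [2.72, 4.85] in ATI cells and 2.58 [2.04, 3.21] in keratin-high cells. The fibroblast level was 29.8-fold the ATII level [27.2, 32.6]. Keratin-high cells were 2.61-fold below ATII cells [2.08, 3.33], a log2 ratio of -1.39 that was -2.64 with stricter gates and, no longer past 2-fold, -0.69 with looser gates and -0.85 with cells weighted equally. ATI cells were 1.83-fold below [1.38, 2.50], a log2 ratio of -0.88 that was past 2-fold at -1.65 with cells weighted equally and between -1.42 and -1.44 after thinning, without the cells of most UMIs and without the stretch of columns numbered 7. The intervals of keratin-high and ATI cells overlapped, with a keratin-high to ATI ratio of 0.702 [0.485, 1.02]. Their order depended on the setting. The log2 ratios to ATII were -0.85 in keratin-high and -1.65 in ATI cells with cells weighted equally, and -2.64 and -0.87 with stricter gates. Endothelial reference cells stood between, at 20.2 [14.0, 28.3], and the immune reference cells had no Wnt5a UMI, which allows a level of up to 1.59. With 5000 UMIs drawn from every cell, 53.8% of fibroblasts had a Wnt5a UMI (106 of 197, exact binomial 95% interval 46.6 to 60.9) against 2.89% of ATII cells (196 of 6772, 2.51 to 3.32). Without thinning the shares were 75.4% and 10.4%. Because ATII cells were so many, they still held 44.7% of all Wnt5a UMIs of the retained cells, and the 236 fibroblasts held 35.4%.

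Wnt4, a ligand active in epithelial morphogenesis, had the same fibroblast excess. Its level was 71.1 CPM [63.4, 79.6] in fibroblasts, 8.84 [7.32, 10.6] in ATI cells, 7.66 [6.71, 8.71] in keratin-high cells and 2.40 [2.16, 2.65] in ATII cells. Fibroblasts stood 29.7-fold above ATII cells [25.5, 34.6]. ATI cells stood 3.69-fold [2.98, 4.55] and keratin-high cells 3.20-fold [2.71, 3.77] above ATII cells. Those 2 epithelial gates could not be told from each other, with a keratin-high to ATI ratio of 0.867 [0.692, 1.09]. The ATII level was not above that of the immune reference cells at this depth (2.13 [0.579, 5.44], 4 UMIs; ratio 1.13 [0.437, 4.16]). Outside the fibroblast gate Wnt4 was concentrated: 59 cells had 4 or more UMIs and held 29.1% of the Wnt4 UMIs outside that gate. Of these, 43 fell into no gate. The 59 cells had a median of 43.1 Sftpc, 4.55 Hopx and 26.2 keratin UMIs per 10000.

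Wnt7b, which in the developing lung is made by the epithelium, was the ligand with the reverse distribution. It was at 23.1 CPM [21.4, 24.9] in keratin-high cells, 11.3 [9.58, 13.3] in ATI cells, 6.43 [6.05, 6.84] in ATII cells and 1.16 [0.377, 2.71] in fibroblasts. Keratin-high cells stood 3.59-fold above ATII cells [3.26, 3.95] and 2.04-fold above ATI cells [1.71, 2.45]. ATI cells stood 1.76-fold above ATII cells [1.47, 2.09]. Fibroblasts were 5.53-fold below ATII cells [2.36, 17.1], on 5 UMIs, and this log2 ratio of -2.47 was -1.55 with looser gates, -1.83 after thinning and -3.10 without the stretch of columns numbered 3. No UMI was seen in endothelial reference cells. The immune reference cells had 4 UMIs, a level of 2.13 [0.579, 5.44], and the fibroblast level was not above it (ratio 0.547 [0.118, 2.75]). Thinned to 5000 UMIs, 9.82% of keratin-high cells (107 of 1090, 8.11 to 11.7) and 3.44% of ATII cells (3.02 to 3.90) had a Wnt7b UMI, against 1.02% of fibroblasts (0.123 to 3.62). The unthinned shares were 30.1%, 12.6% and 1.69%.

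Wnt3a, a canonical ligand, had most of its UMIs in the ATI gate. That gate had 200 UMIs, a level of 15 CPM [13.0, 17.2]. The 6975 ATII cells had 12 UMIs, or 0.0743 [0.0384, 0.130], and the keratin-high cells 20 UMIs, or 0.652 [0.398, 1.01]. The ATI level was 202-fold the ATII level [113, 397] and 23.0-fold the keratin-high level [14.5, 38.4]. The first, a log2 ratio of 7.66, was 8.48 with stricter gates. The second ratio was 7.64 with looser gates, 9.54 with cells weighted equally, 13.6 after thinning and 52.8 with stricter gates. Fibroblasts had no UMI, which allows up to 0.697 at the limit of 3 counts over the gate. The ATI level was 21.5-fold that limit. The exact interval of the ratio puts ATI cells 17.3-fold or more above fibroblasts. ATI cells, 7.85% of the retained cells, held 70.2% of all Wnt3a UMIs, and cells of no gate held 53 UMIs, or 18.6%. Wnt3a was spread over many of them: 168 ATI cells had a UMI and none had more than 3. In thinned cells it was seen in 8.80% of ATI cells (74 of 841, 6.97 to 10.9) and 0.0738% of ATII cells (5 of 6772), and without thinning in 17.6% and 0.172%. Among thinned ATI cells a Porcn UMI was found in 13.5% of the 74 with Wnt3a (6.68 to 23.5) and in 10.4% of the 767 without (8.36 to 12.8), so the intervals overlapped.

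The expression of Porcn would be needed wherever a Wnt is secreted, and it was detected in every gate. Its level was 30.9 CPM [28.0, 34.0] in ATI cells, 29.3 [24.4, 34.9] in fibroblasts, 12.8 [12.3, 13.4] in ATII cells and 10.3 [9.20, 11.5] in keratin-high cells. ATI cells and fibroblasts did not differ beyond counting error (ratio 0.949 [0.771, 1.16] of fibroblast to ATI), and both were above ATII cells, with ratios of 2.41 [2.16, 2.68] and 2.28 [1.89, 2.74]. Relative to the median feature neither was over 2-fold, with log2 ratios of 0.95 and 0.89, nor was the fibroblast ratio with looser gates (0.97) or without the stretch of columns numbered 8 (0.98). Without the stretch numbered 7 both were larger, with log2 ratios of 1.98 for ATI cells and 2.33 for fibroblasts. Fibroblasts then stood above ATI cells, but no interval was computed for that difference. They were above ATI cells in 6 of 8 stretches. The immune reference cells had 3 UMIs, a level of 1.59 [0.329, 4.66]. Keratin-high cells were 1.24-fold below ATII cells [1.10, 1.41], but this order turned around when one stretch of the matrix was left out, as described with the stretches of columns. The share of thinned cells with a Porcn UMI already had the other order, with 6.42% of keratin-high cells (5.04 to 8.04) and 3.54% of ATII cells (3.12 to 4.01). Unthinned, the shares were 20.5% and 12.6%. Porcn was concentrated as well: outside the fibroblast gate 167 cells had 4 or more UMIs and held 48.0% of the Porcn UMIs there.

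Axin2, which encodes a scaffold of the beta-catenin destruction complex and is induced by canonical signaling, was at 30.7 CPM [25.7, 36.4] in fibroblasts. It was at 3.52 [2.59, 4.68] in ATI, 3.27 [3.0, 3.56] in ATII and 1.27 [0.904, 1.74] in keratin-high cells. Fibroblasts stood 9.39-fold above ATII cells [7.70, 11.4]. ATI and ATII cells did not differ beyond counting error (ratio 1.08 [0.782, 1.45]), and keratin-high cells were 2.57-fold below ATII cells [1.86, 3.66]. This log2 ratio of -1.36 was no longer past 2-fold with looser gates (-0.81) or with cells weighted equally (-0.98). In thinned cells 13.7% of fibroblasts (9.23 to 19.3) and 1.86% of ATII cells (1.55 to 2.21) had an Axin2 UMI. The immune reference cells had none, which allows up to 1.59.

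Lgr4, a receptor for R-spondins, was at 3.72 CPM [2.13, 6.04] in fibroblasts, 2.15 [1.93, 2.39] in ATII, 1.04 [0.714, 1.47] in keratin-high and 0.674 [0.308, 1.28] in ATI cells. Fibroblasts and ATII cells did not differ beyond counting error (ratio 1.73 [0.976, 2.84]). ATI cells were 3.19-fold below ATII cells [1.66, 7.04] and keratin-high cells 2.06-fold below [1.44, 3.07], a log2 ratio of -1.05 that was -0.75 with stricter gates and -1.67 after thinning. The immune reference cells had 1 Lgr4 UMI, and no epithelial gate was above them at this depth, with ratios of 4.05 [0.723, 161] for ATII, 1.96 [0.328, 79.9] for keratin-high and 1.27 [0.176, 55.6] for ATI cells. Without the stretch of columns numbered 3 or 6 the keratin-high to ATII log2 ratio was -0.87 or -0.97. Lgr5, the stem cell marker of the gut, had 35 UMIs in all retained cells, of which 10 were in fibroblasts, 11 in ATII, 5 in keratin-high and 3 in ATI cells. Its level was 2.32 [1.11, 4.28] in fibroblasts and 0.0681 [0.0340, 0.122] in ATII cells.

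The members can be read against all features measured. Of the features with at least 50 UMIs over both gates, 15.5% were over 2-fold higher and 8.43% over 2-fold lower in keratin-high than in ATII cells. Of the 8 members 6 reached that minimum, of which 2 (Wnt4 and Wnt7b) were over 2-fold higher, 3 (Wnt5a, Axin2 and Lgr4) over 2-fold lower and Porcn between. Their median log2 ratio was -0.68 against 0.32 over all features, but -0.15 without the stretch of columns numbered 7, where Porcn stood apart, -0.27 after thinning, -0.29 with cells weighted equally and -0.30 with looser gates. With every cell given equal weight, or with looser gates, none of those 3 was over 2-fold lower any more, although all were still lower. For ATI against ATII, the background was 12.2% higher and 10.2% lower. Of 7 members 3 were over 2-fold higher (Wnt3a, Wnt4 and Porcn), Lgr4 was lower and 3 lay between, with a median log2 ratio of 0.81 against 0.31. Wnt3a, with 12 UMIs in ATII cells, reached the minimum only through the ATI gate and could enter this count and median only as a higher gene. For fibroblasts against ATII the background was 24.4% higher and 15.3% lower. Of 6 members 4 were higher (Wnt5a, Wnt4, Porcn and Axin2), Wnt7b was lower and Lgr4 lay between, with a median of 2.21 against 0.30. Wnt3a and Lgr5 missed the minimum in the keratin-high and fibroblast comparisons and Lgr5 in the ATI comparison. The median feature thus stood 0.30 to 0.32 above 0 on the log2 scale in each comparison.

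Fibroblast markers were also counted in the epithelial gates. Mgp, which encodes a matrix protein, was at 33779 CPM in fibroblasts and 20.2 in ATII, 6.22 in ATI and 5.67 in keratin-high cells. At the proportion that Wnt5a has to Mgp in fibroblasts, the Mgp level of ATII cells corresponds to 0.120 CPM of Wnt5a, or 1.78% of the level measured. With the 4 gate genes in place of Mgp the value was 0.160, or 2.38%. For Wnt4 in ATII cells the shares were 1.77% and 2.37%, and for Axin2 0.561% and 0.751%. These values assume 1 fixed fibroblast profile, and the part of fibroblast RNA in the epithelial levels was not tested otherwise.

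Along the keratin level itself, taking all retained cells outside the fibroblast gate, endothelial and immune cells included, the ligands parted. Wnt7b was at 5.10 CPM [4.43, 5.85] in the 2324 cells with under 5 Krt8 and Krt18 UMIs per 10000. It was at 12.6 [11.6, 13.7] in the 2186 cells from 20 to 50, and at 32.4 [28.8, 36.2] in the 333 cells at 100 or more. Each step of the 6 was higher than the one before it. Wnt5a stayed between 6.14 and 7.52 up to a keratin level of 50, and was at 3.25 [2.53, 4.11] from 50 to 100 and 0.959 [0.438, 1.82] at 100 or more. Wnt4 was highest in the middle, at 9.93 [9.02, 10.9] from 20 to 50, against 1.73 [1.35, 2.18] under 5 and 5.65 [4.23, 7.39] at 100 or more. Axin2 was at 3.13 [2.61, 3.73] under 5 and at 1.17 [0.585, 2.10] at 100 or more.

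Along the Hopx level of the same cells with keratin under 50, Wnt3a was the gene that followed it. It was at 0.0802 CPM [0.0438, 0.135] in the 8038 cells with Hopx under 2. It then was at 0.470 from 2 to 5, 2.76 from 5 to 15, 9.19 from 15 to 30, 20.3 from 30 to 60 and 28.5 [20.6, 38.4] in the 151 cells at 60 or more. Wnt7b was at 6.90 [6.52, 7.30] below 2 and between 9.93 and 12.1 in the 5 higher steps. Wnt4 again peaked in the middle, at 14.0 [12.1, 16.0] from 5 to 15, and Porcn was highest from 15 to 30, at 35.8 [31.7, 40.4]. Lgr4 was at 2.03 [1.83, 2.26] below 2 and at 0.533 [0.145, 1.36] from 15 to 30.

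**Figure D2:**
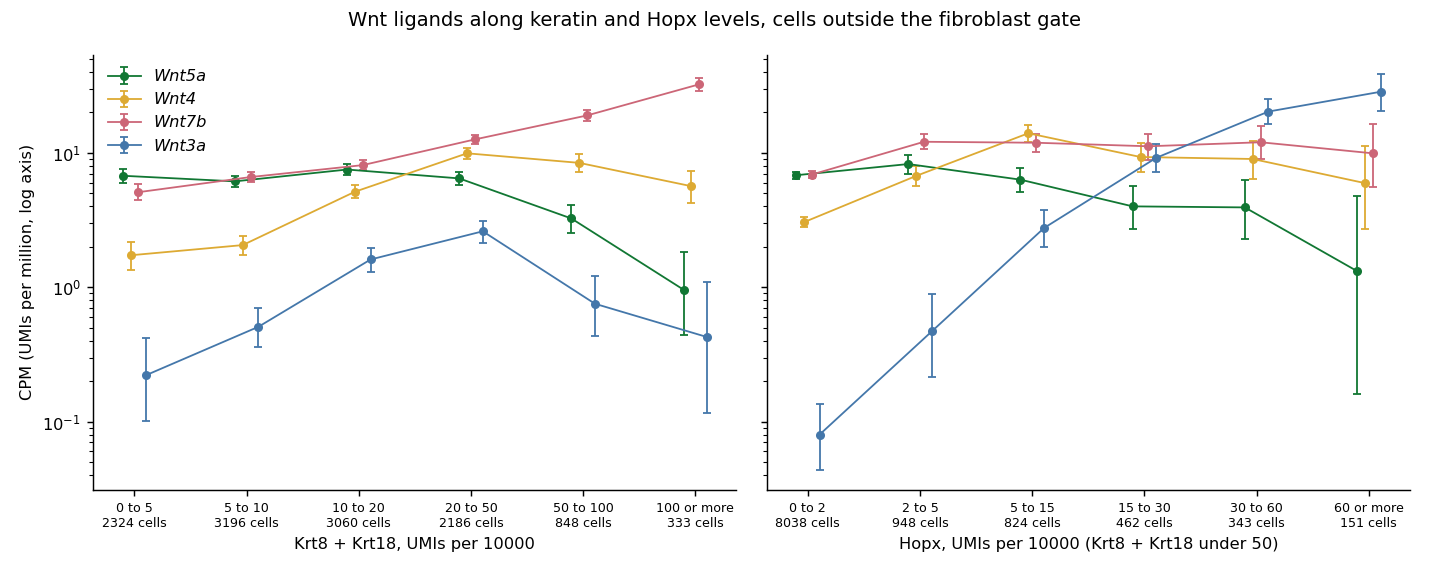
Level of Wnt5a, Wnt4, Wnt7b and Wnt3a (CPM, log axis) in cells outside the fibroblast gate, by Krt8 plus Krt18 level on the left and by Hopx level on the right, both in UMIs per 10000. Points are levels summed over the cells of a step and lines exact Poisson 95% intervals; Wnt7b reaches 32.4 at the highest keratin step and Wnt3a 28.5 at the highest Hopx step.

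The keratin-high gate was not uniform. Its 620 cells with Hopx under 2 had Wnt7b at 28.0 CPM [25.6, 30.6] and Porcn at 5.88 [4.81, 7.12]. Its 127 cells with Hopx at least 15 had Wnt7b at 12.2 [7.95, 17.8] and Porcn at 22.0 [16.2, 29.3]. Wnt7b was thus 2.30-fold higher [1.55, 3.56] and Porcn 3.74-fold lower in the cells with low Hopx (ratio 0.267 [0.188, 0.385]). Of the 20 Wnt3a UMIs of the gate, 13 were in these 127 cells, at a level of 6.09 [3.24, 10.4]. Within keratin-high cells as outside them, Wnt3a and Porcn were higher where Hopx was high.

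ATII cells differed among themselves by the level of Lyz2, a lysozyme gene of mature ATII cells. Those outside the fibroblast gate were divided into 3 groups of 2322, 2322 and 2323 cells. Wnt5a was at 9.18 CPM [8.33, 10.1] in the group with the least Lyz2, 6.76 [6.08, 7.51] in the middle one and 4.35 [3.85, 4.90] in that with the most. Axin2 ran the other way, at 2.50 [2.07, 2.99], 2.94 [2.49, 3.44] and 4.03 [3.55, 4.56]. The ratio of the lowest to the highest group was 2.11 [1.81, 2.46] for Wnt5a, 1.78 [1.39, 2.27] for Wnt4 and 0.620 [0.494, 0.775] for Axin2. For Lgr4 it was 0.883 [0.672, 1.15]. Porcn stood at 25.1 [23.6, 26.5], 10.9 [10.1, 11.9] and 5.0 [4.46, 5.59]. Its ratio of 5.01 [4.42, 5.70] was 2.78 [2.32, 3.35] without the stretch of columns described next. The median depth was 18444, 20514 and 25570 UMIs in the 3 groups, and the part of depth in these ratios was not tested.

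**Figure D3:**
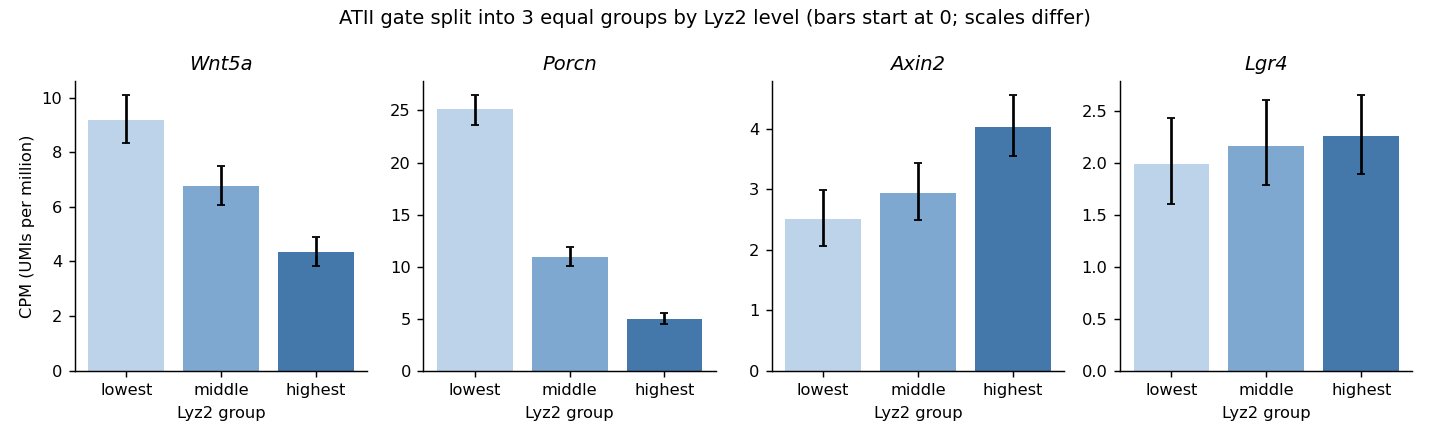
Level of Wnt5a, Porcn, Axin2 and Lgr4 (CPM) in ATII cells outside the fibroblast gate, divided into 3 groups of nearly equal size by Lyz2 level. Bars are summed levels and lines exact Poisson 95% intervals; Wnt5a goes from 9.18 to 4.35 and Axin2 from 2.50 to 4.03 from the group with the least to that with the most Lyz2.

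The matrix columns were divided, in file order, into 8 stretches of equal length. What the order stands for is not stated, so the stretches were not assigned to mice or cohorts, but they were not alike. The first 4 held 197 to 253 keratin-high cells each and the last 4 held 49 to 70. Wnt7b was higher in keratin-high than in ATII cells in 8 of 8 stretches, Wnt3a higher in ATI than in ATII cells in 8 of 8, and Wnt4 higher in ATI and in keratin-high than in ATII cells in 8 of 8 each. Wnt5a, Wnt4 and Axin2 were higher in fibroblasts than in ATII cells in 8 of 8. Wnt5a was lower in keratin-high than in ATII cells in 7, as was Axin2, while Lgr4 was so in 8. The keratin-high cells of a stretch had only 0 to 8 Axin2 and 0 to 11 Lgr4 UMIs. In stretches 6 and 8 they had no Lgr4 UMI, which allows up to 2.49 and 2.21 CPM. The ATII levels there were 2.48 and 1.30, so those stretches cannot show a lower Lgr4 level. Levels varied between stretches all the same. Wnt5a in ATII cells ranged from 1.78 to 13.1 CPM, and Wnt7b in keratin-high cells from 14.2 to 58.2. The 4 stretches with few keratin-high cells had the higher Wnt7b levels in that gate, the lowest of them at 31.0 and the highest of the others at 21.1. Among ATII cells, Wnt5a was higher in the low-Lyz2 group in 7 of 8 stretches, Wnt4 and Porcn in 8 and Wnt7b in 6. Axin2 and Lgr4 were each higher in the high-Lyz2 group in 7.

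Porcn was the exception. In ATII cells it was at 42 CPM [39.7, 44.3] in the stretch numbered 7 and at 5.98 [5.57, 6.41] over the other 7. In ATI cells it was at 71.3 [60.2, 84.0] in that stretch and at 23.6 [20.9, 26.6] over the others. In keratin-high cells the levels were 13.5 [9.15, 19.1] and 10.0 [8.91, 11.3]. Of 171 retained cells with 4 or more Porcn UMIs, 111 (64.9%) lay in the stretch numbered 7, within 923 neighbouring columns, and the highest cell had 66. Of the 171, 91 were in the ATII gate and 60 in no gate. Without the stretch, Porcn was at 10.0 [8.91, 11.3] in keratin-high cells against 5.98 in ATII cells, a ratio of 1.68 [1.46, 1.93], so keratin-high cells were then above ATII cells. The ATI to ATII ratio without it was 3.95 [3.42, 4.54], and the log2 ratio of fibroblasts to ATII cells was 2.33 in place of 1.19. Wnt5a in ATI against ATII cells also moved without it, from a log2 ratio of -0.88 to -1.42, which is past 2-fold. Porcn was higher in ATI than in ATII cells in 8 of 8 stretches and in keratin-high than in ATII cells in 7 of 8.

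The ATII cells rich in Porcn were examined together with the genes beside it on the X chromosome. The 77 ATII cells of that stretch with 4 or more Porcn UMIs had Porcn at 318 CPM [299, 338]. Ebp, which encodes a sterol isomerase of cholesterol synthesis, lies 335 bases from Porcn on the same strand, at chrX:8185329-8193512. Ebp was at 162 [149, 177] in these cells, against 41.3 [38.6, 44.1] in the 851 ATII cells of the stretch without a Porcn UMI, a ratio of 3.93 [3.52, 4.38]. Farther along, Ftsj1 at chrX:8238668-8252406 was at 18.2 [13.8, 23.4] against 10.2 [8.91, 11.6]. Tbc1d25 at chrX:8154472-8176181 was at 4.00 [2.13, 6.84] against 3.31 [2.59, 4.17]. Wnt5a was at 34.5 [28.4, 41.5] against 6.39 [5.38, 7.55], Wnt7b at 4.31 [2.35, 7.23] against 7.08 [6.01, 8.30], and Wnt4 at 1.23 [0.335, 3.15] against 2.90 [2.23, 3.71]. The cells were chosen for Porcn, and their median depth was 39543 UMIs against 24859, so these values describe them and the part of depth was not tested.

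**Figure D4:**
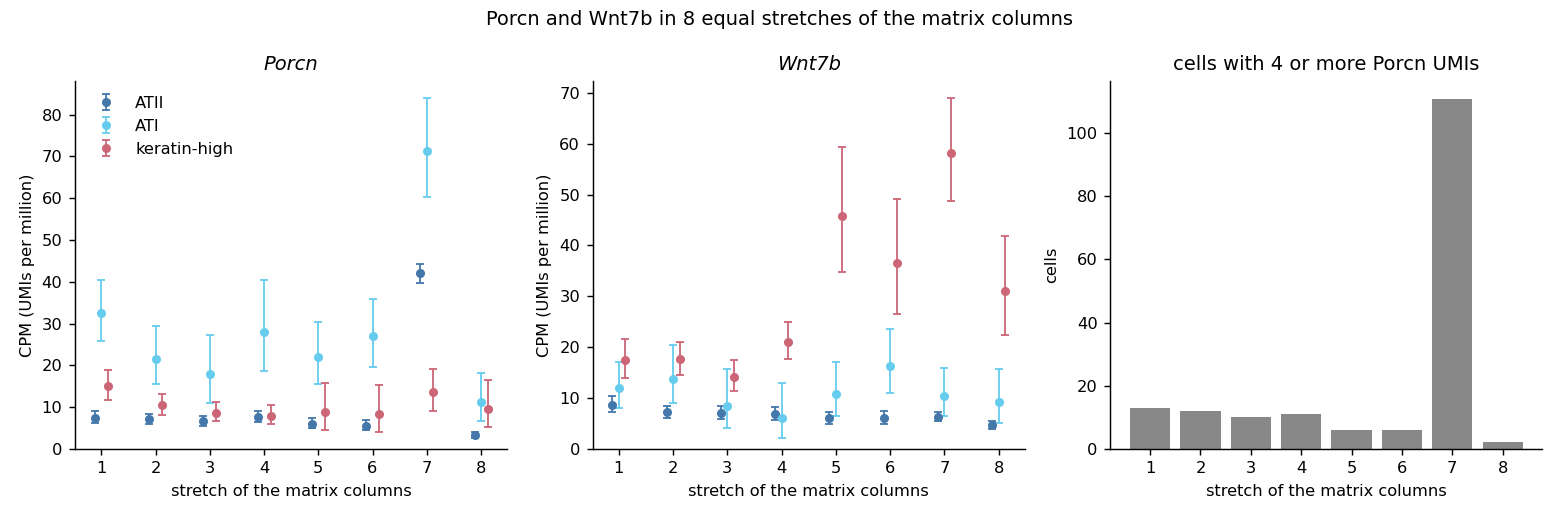
Porcn and Wnt7b levels (CPM, exact Poisson 95% intervals) in the ATII, ATI and keratin-high gates for 8 equal stretches of the matrix columns, and the number of retained cells with 4 or more Porcn UMIs in each stretch. Porcn in ATII cells reaches 42 in stretch 7, which holds 111 of the 171 cells rich in Porcn, while Wnt7b is higher in keratin-high than in ATII cells in all 8 stretches.

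Among fibroblasts, Wnt5a, Wnt4, Axin2 and Porcn were higher where the alveolar fibroblast markers Pdgfra and Tcf21 were high. The 121 cells with at least 5 UMIs per 10000 of both together had Axin2 at 41.2 CPM against 21.6 in the other 115, a ratio of 1.90 [1.32, 2.76]. For Wnt4 the levels were 104 and 42.9, a ratio of 2.43 [1.90, 3.11], and for Wnt5a 260 and 149, a ratio of 1.74 [1.51, 2.00]. Porcn was at 37.2 and 22.5, with a ratio of 1.65 [1.14, 2.40]. The Wnt7b UMIs of the gate, 5 in all, were all in the other cells, but the ratio of 0 [0, 1.27] does not set the 2 groups apart.

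The rest of the pathway was read from lists of 92 genes by role. In keratin-high against ATII cells, 58 genes had at least 50 UMIs over both gates, and 11 (19.0%) were over 2-fold higher and 9 (15.5%) over 2-fold lower, beside 15.5% and 8.43% of all features. In ATI cells 11 of 56 (19.6%) were higher and 7 (12.5%) lower, beside 12.2% and 10.2%. In fibroblasts 27 of 64 (42.2%) were higher and 7 (10.9%) lower, beside 24.4% and 15.3%. Some genes reached the minimum only through the gate where they were high, so the shares are descriptions and nothing particular to the pathway is read from them.

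Of 19 Wnt ligands, 7 could be compared between keratin-high and ATII cells, and 6 were over 2-fold higher in keratin-high cells, beside 15.5% of all features. Only Wnt5a was lower. Wnt10a and Wnt11, with 12 and 18 UMIs in ATII cells, reached the minimum only through the keratin-high gate, so their direction in this count was fixed by it. Wnt10a was at 8.51 CPM against 0.0743, a ratio of 115 [64.5, 225]. Wnt7a, the closest relative of Wnt7b, was at 58.2 against 5.74, a ratio of 10.1 [9.36, 11], and Wnt11 had a ratio of 21.7 [12.8, 38.5] and Wnt9a of 5.45 [3.72, 7.99]. In ATI cells Wnt7a was at 54.4, 9.48-fold the ATII level [8.59, 10.5]. In fibroblasts Wnt2, a mesenchymal ligand, was at 13.7 on 59 UMIs, with 1 UMI in ATII cells and a ratio of 2215 [382, 88971]. Wnt11 was at 68.1 there, 611-fold the ATII level [380, 1046]. Wnt2 and Wnt11, with 1 and 18 UMIs in ATII cells, reached the minimum only through the fibroblast gate and could enter only as higher genes.

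Wls, which carries lipidated Wnts to the cell surface, differed little, with ratios to ATII of 1.17 [1.14, 1.21] in keratin-high, 1.48 [1.43, 1.54] in ATI cells and 1.41 [1.32, 1.5] in fibroblasts. Of 16 Frizzleds and coreceptors 13 could be compared. None was over 2-fold higher in keratin-high cells, and 2 were lower: Ror1, a receptor for Wnt5a, by 3.97-fold [3.08, 5.20] and Fzd7 by 2.00-fold [1.79, 2.25]. Over all features 15.5% were higher and 8.43% lower, so with 13 genes nothing is read from this count. In ATI cells Fzd2 was at 60.8 against 16.3, a ratio of 3.73 [3.44, 4.04], and Fzd4 at 1.72 against 6.46, or 3.75-fold lower [2.48, 5.94]. In fibroblasts Fzd1 was at 184 against 11.4, a ratio of 16.1 [14.8, 17.5].

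Of the 9 R-spondins, Lgr receptors and E3 ligases, 4 could be compared in keratin-high cells. Lgr6 had a ratio of 7.99 [4.97, 13.0], but with 31 UMIs in ATII cells it reached the minimum only through the keratin-high gate, so its direction in the count was fixed by that. Rnf43 and Znrf3, which clear Frizzleds from the membrane, lay between, at ratios of 0.812 [0.717, 0.918] and, for Znrf3, levels of 7.56 against 7.67. In fibroblasts Lgr6 was at 18.8 against 0.192 and Rnf43 at 1.16 against 12. There too Lgr6 reached the minimum only through the gate where it was high.

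Of the 16 secreted and surface inhibitors, 4 could be compared in keratin-high cells. Notum, which removes the lipid that Porcn adds, was 3.36-fold lower there [1.97, 6.24] and 3.86-fold higher in ATI cells [2.95, 4.99], at 0.457, 5.92 and 1.54 CPM in keratin-high, ATI and ATII cells. In fibroblasts 8 inhibitors reached the minimum, of which Sfrp1, Frzb, Dkk2 and Dkk3 had under 50 UMIs in ATII cells and so could enter only as higher genes, and no count is read from them. Sfrp1 was at 110 there, with 2 UMIs in ATII cells, and Frzb was at 60.7 against 0.0310 in ATII cells.

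The 12 cytoplasmic transduction genes lay within 2-fold in keratin-high and ATI cells. Ctnnb1, which encodes beta-catenin, was at 648 against 377 CPM in ATII, a keratin-high to ATII ratio of 1.72 [1.69, 1.75]. Of 10 TCF/LEF factors and cofactors, Tcf7 was higher in keratin-high cells with a ratio of 3.07 [1.96, 4.74]. Pygo1 was lower, with 1 UMI in keratin-high cells against 494 in ATII cells, or 93.8-fold [16.8, 3712]. Lef1 was at 34.2 in fibroblasts against 0.0371 in ATII cells, a ratio of 920 [413, 2548]. With 6 UMIs in ATII cells it reached the minimum only through the fibroblast gate, so its direction was fixed by that.

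The target genes did not move as one. Of 14, 11 could be compared in keratin-high cells, with 4 higher (Tcf7, Ccnd1, Myc and Cd44), 4 lower (Axin2, Nkd1, Notum and Ascl2) and 3 between. Over all features 15.5% were higher and 8.43% lower. Nkd1, a feedback inhibitor that acts on Dishevelled, showed the widest gap, at 300 CPM in ATII cells and 34.0 in keratin-high cells, or 8.80-fold lower [8.28, 9.37]. In ATI cells Nkd1 was 3.19-fold lower [3.02, 3.38]. Myc was at 26.6 against 5.64 in keratin-high cells, a ratio of 4.71 [4.28, 5.18]. Nkd2 was at 94.6 in fibroblasts against 0.272 in ATII cells. With 44 UMIs in ATII cells it reached the minimum only through the fibroblast gate and could enter only as a higher gene.

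**Figure D5:**
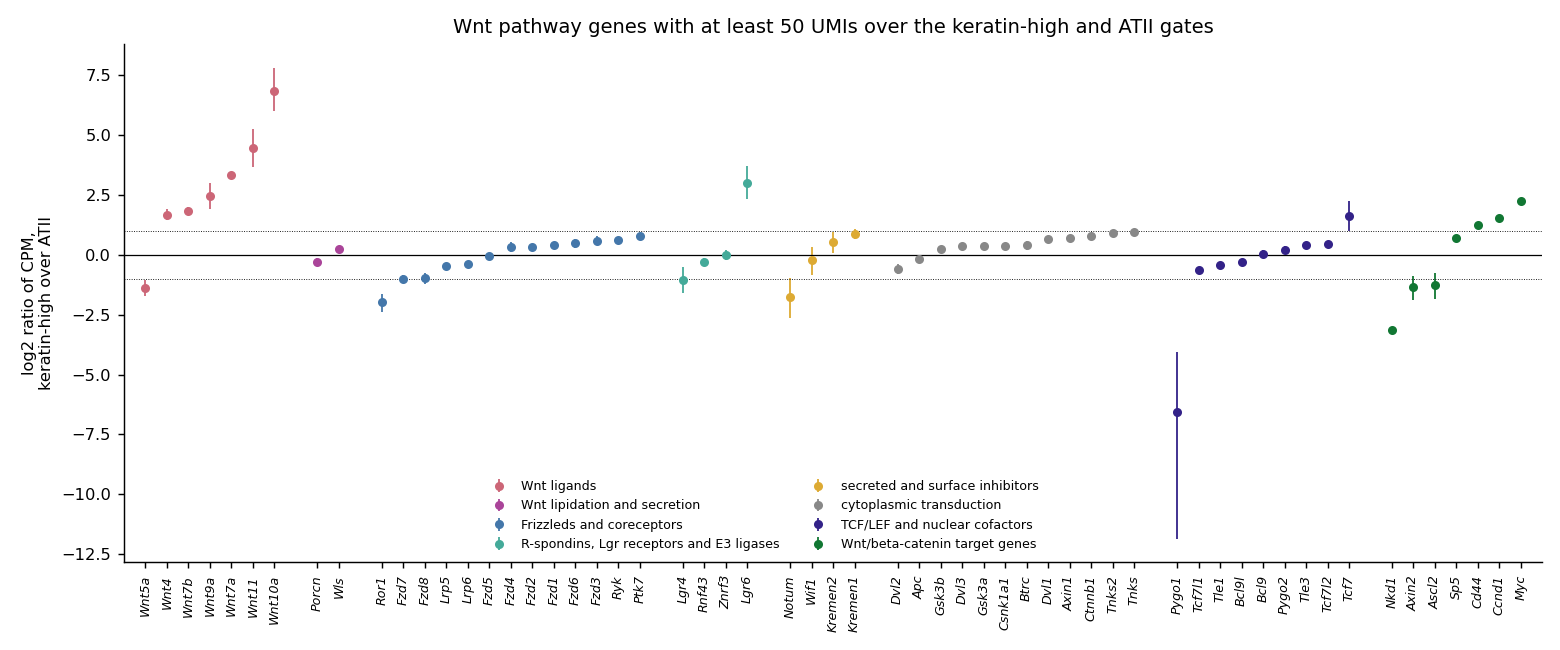
log2 ratio of the level in keratin-high over ATII cells for the 58 Wnt pathway genes with at least 50 UMIs over both gates, grouped and colored by role (a gene in 2 lists is drawn once). Lines are exact 95% counting intervals and dotted lines mark 2-fold; Wnt10a, Wnt11 and Wnt7a are the highest ligands, and Nkd1 is the lowest target gene.

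Finally, the genes whose levels over 9 disjoint cell groups were most like those of each member were found by Pearson's r of log2(CPM + 1), among 11275 genes with at least 500 UMIs. The groups were ATII cells, cells with both Sftpc and Hopx, ATI cells, keratin-high cells in 3 steps of Hopx, fibroblasts, endothelial and immune cells. They share 1 matrix, and with 9 points many genes give a high r. Wnt7b was most like Pkp3 (r = 0.988), which encodes the desmosomal plakophilin 3, Pafah1b3 (0.985) and Areg (0.985), the gene for the EGFR ligand amphiregulin. For Wnt3a the nearest were Smim8, Rtkn2 and Rnf25 (each 0.945), of which Rtkn2 is an ATI marker. Wnt4 was nearest to P4ha3 (0.982), a collagen prolyl hydroxylase gene, Ppp1r14a (0.974) and Zfp775 (0.967). Wnt5a was nearest to Arntl (0.980), Pcdhgc3 (0.977) and Sardh (0.976). Axin2 was nearest to Acadsb (0.992), Nfix (0.984) and Fkbp14 (0.982), Porcn to Ercc6l2 (0.965), Ssbp2 (0.961) and Ybey (0.956), and Lgr4 to Cnpy3 (0.970), Il34 (0.955) and Col6a1 (0.951). Lgr5 had too few UMIs for this comparison.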

How the data were processed

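Single-cell libraries (10x 3′ v3) of 6 mice were deposited as raw counts, 1 whole number of UMIs for each feature in each cell. The authors mapped them to mm10 with Cell Ranger 3.0.2. The annotation release is not given in the sources used here. An allele that all mice shared is not reported here. The 16017 cells came in 1 matrix of 266713311 UMIs with no map to mice, so no test between mice was possible and the matrix was 1 sample. Per-cell totals ran from 500 to 125731 UMIs.

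The 8 genes, the gates and the gene lists were chosen with earlier results of these data known. Cells with at least 500 genes and at most 20% mitochondrial UMIs were kept (12183). Levels were summed UMIs per 1000000 UMIs with exact Poisson 95% intervals, ratios had exact conditional binomial intervals, and shares had exact binomial (Clopper-Pearson) intervals after thinning each cell to 5000 UMIs (seed 42), which left out 203 ATII, 115 ATI, 93 keratin-high and 39 fibroblast cells. A count of 0 was given the limit of 3 counts. A gene was called over 2-fold different with at least 50 UMIs over both gates. No doublet caller was run. Instead, leaving out the 6% of cells with the most UMIs in each gate was an alternative, as were other filters, gates, weights and minimums. Leaving out stretches of columns was added after the data were seen.

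The genes named beside the 8 were, for each role, up to 4 with the largest keratin-high to ATII ratio at the 50-UMI minimum, and those among the 2 largest of a role over 2-fold different in ATI cells or fibroblasts. Ebp, Ftsj1 and Tbc1d25, and Ccnd1, Cd44 and Ascl2 as part of a count, were chosen after their values were seen. Positions came from GENCODE M21, where all 8 gene IDs were found, and coding sequence from its transcripts. The calls were tested on simulated data. The scripts ran on Python 3.11.15 with scipy 1.17.1, numpy 2.4.6, matplotlib 3.10.9 and pandas 2.3.3.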

Additional observations from a re-analysis of the deposited data

How the results depend on the processing

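Of 140 recomputed counts of genes over 2-fold different, 133 were within 1.5 times the reported count, and of 414 recomputed log2 ratios of single genes 360 stayed inside the counting interval of the reported value, 49 moved out of it with the same sign and 5, all of Porcn, changed sign where the reported interval lay on 1 side of 0. The count of members over 2-fold lower in keratin-high than in ATII cells was 3 and became 0 with cells weighted equally and 0 with looser gates, where Wnt5a, Axin2 and Lgr4 had log2 ratios of -0.85, -0.98 and -0.94 and of -0.69, -0.81 and -0.92. The count lower in ATI than in ATII cells was 1 and became 2 with equal weights, after thinning, without the cells of most UMIs, relative to the median feature, and without column stretch 7, since Wnt5a passed 2-fold. The log2 ratio of Porcn between keratin-high and ATII cells was -0.32 and changed sign to 0.27 with equal weights, 0.48 after thinning, 0.10 with looser gates, 0.06 without the cells of most UMIs and 0.75 without column stretch 7. Axin2 between ATI and ATII cells, whose reported log2 ratio of 0.11 was within counting error of 0, was -0.30 after thinning, -0.21 relative to the median feature and -0.09 without column stretch 3. No other log2 ratio of the 8 genes to ATII cells changed sign. This does not extend to ratios between the other gates. There the order of keratin-high and ATI cells for Wnt5a depended on the setting. The order of fibroblasts and ATI cells for Porcn turned around without column stretch 7. Lgr5, and Wnt3a outside ATI cells, are limited by depth. No paired analysis was possible because the matrix holds no map from cells to mice and no result comes from a test between samples.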
